A study of Mus musculus with 28 samples.

Results

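Transcripts of 10 proteins that assemble in stress granules and neuronal RNA granules were followed across ribosome footprint and total mRNA libraries of mouse cells that carried human TDP-43. The members were taken by name and were G3bp1, G3bp2, Caprin1, Tia1, Tial1, Fmr1, Fxr1, Fxr2, Atxn2 and Stau1, which are 10 of the 45513 genes listed in each count table. All 10 were read in each of the 28 libraries, with at least 4 reads in footprint libraries and at least 11 in total mRNA libraries, and all 10 passed the low-count filter of every comparison. MN1 cells, a clonal line made by fusing spinal motor neurons of the mouse with neuroblastoma cells, were transiently transfected with GFP, hTDP-43 (wild-type human TDP-43) or hTDP-43 A315T (an ALS patient mutation), with 2 cultures each. Primary cortical neurons came from embryonic day 16 mice on the C57BL/6J strain, received 0.5 µM Ara-C against dividing cells and were harvested on day 14 in vitro. They carried no transgene (WT, 2 cultures) or 1 of 2 hemizygous transgenes under the mouse prion promoter, hTDP-43 (3 cultures) or hTDP-43 A315T (3 cultures). Each culture gave a footprint and a total mRNA library, so there were 6 of each in MN1 cells and 8 of each in neurons. MN1 cells were exposed to 100 µg/mL cycloheximide for 3 min before lysis and neurons were not, so that this step and the cell type cannot be told apart. An established line and a primary culture also differ in much else, and a transiently transfected dish mixes cells with and without the plasmid.

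Stress granules are condensates of mRNA and protein that form when translation initiation stalls. G3BP1 and G3BP2 are the RNA-binding scaffolds that nucleate them, CAPRIN1 binds both scaffolds, TIA1 and TIAL1 are aggregation-prone RNA-binding proteins recruited to them, and ataxin-2 is a poly(A)-binding protein partner and a modifier of TDP-43 toxicity. In neurons, FMRP (the product of Fmr1, lost in fragile X syndrome), its autosomal relatives FXR1 and FXR2 and the double-stranded RNA-binding protein Staufen 1 travel with mRNAs in dendritic granules and restrain or localise their translation.

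Library depth ranged from 332370 to 1219222 reads in MN1 footprints, 1328528 to 2988339 in MN1 total mRNA, 166064 to 2528820 in neuron footprints and 600385 to 6969578 in neuron total mRNA. The 10 members held between 0.0666% and 0.172% of a library's reads. Tardbp, to which reads of human TDP-43 may also have been assigned, ranged over 226 to 247 CPM (read counts scaled to a common library total after TMM normalisation) in total mRNA of GFP cultures, and hTDP-43 cultures had 351 to 417 CPM and hTDP-43 A315T cultures 385 to 426 CPM, whereas in neuron total mRNA the 3 genotypes overlapped (59.2 to 115 CPM). In neuron footprints Tardbp was at 104 to 108 CPM in WT, above hTDP-43 (63.3 to 92.4 CPM) and hTDP-43 A315T (83.1 to 100 CPM). It was not called in any comparison of genotypes (adjusted p in edgeR's quasi-likelihood test above 0.05). All 8 neuron markers were read in total mRNA of both cell types, with a summed level of 405 to 507 CPM in MN1 total mRNA and 4673 to 5426 CPM in neurons. The 3 motor neuron markers summed to 28.1 to 42.9 CPM in MN1 total mRNA, the 2 markers of dividing cells to 161 to 332 CPM there and 1.28 to 6.83 CPM in neurons, and the 5 astrocyte markers to 237 to 608 CPM in neurons and at most 2.75 CPM in MN1 cells, with Aldh1l1 at 0. Neuron total mRNA also held 5 oligodendrocyte lineage markers at 50.7 to 91.1 CPM and 5 microglia markers at 0 to 3.13 CPM, and Cldn5, 1 of 2 endothelial markers, was at 0 in total mRNA of both cell types. The part of these other cells in the values below was not tested, and fewer cells of a type and less RNA per cell cannot be told apart in bulk libraries. WT total mRNA library 3 had 18.8% of its reads on Lars2 against 3.09% in WT library 2. It shared this with hTDP-43 library 3 of the neurons (14.1%), and hTDP-43 A315T library 3 had 3.24%. Values of WT library 3 are singled out where it decides a result.

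Because TDP-43 binds UG-rich RNA, the longest run of alternating T and G was read on the sense strand of each member's transcript with the longest coding sequence (GENCODE M21, GRCm38), and the runs of 4 members are shown in capitals with their flanks to contrast the scaffold G3bp1 with its paralog and with 2 shorter-run members. For G3bp1 the window shows 30 bases of its run, all within it.
G3bp1, 3′ UTR, chr11:55501019-55501048 (+): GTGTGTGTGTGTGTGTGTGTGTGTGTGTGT
G3bp2, 3′ UTR, chr5:92054134-92054162 (-): gctgtgaccagcGTGTGcacacaaacctt
Tia1, 3′ UTR, chr6:86432814-86432843 (+): gcagtgattatTGTGTGTGagatttttccc
Fmr1, 3′ UTR, chrX:68716151-68716180 (+): ggaccctgaaaTGTGTGTGatgtgacattt
The G3bp1 run was 54 bases long, a length reached by 60 of 21901 protein-coding genes (0.274%), where the median gene had 6. Tia1, Fmr1, Caprin1 and Stau1 had runs of 8 bases, which 22.7% of genes reached, and the run of Tial1 was 7 bases. Fxr2 and Atxn2 had 6 bases, and G3bp2 and Fxr1 had 5, which 94.3% of genes reached. A run is a description of the transcript and not a binding site.

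Compared per length of exon, G3bp1 had the highest mean level of the members in MN1 cells (in footprints within the spread of Caprin1) and ranked 5 in total mRNA and 8 in footprints of neurons. The length is that of all annotated exons of a gene, 12945 bases for Tia1 and 15689 for Atxn2. Their transcripts read above have 4477 and 4472 bases, of which 1161 and 3861 are coding. Footprints prefer coding sequence, so the orders below, those of footprints above all, depend on the length chosen. No other length was tried. On the scale of log2 CPM per kilobase, the mean level in MN1 total mRNA was 5.46 for G3bp1, 5.19 for Fxr2, 4.82 for Caprin1, 3.97 for Fxr1, 3.74 for G3bp2, 3.68 for Stau1, 3.62 for Tial1, 2.70 for Atxn2, 2.07 for Fmr1 and 1.66 for Tia1. In neuron total mRNA the order was Fxr2 (4.99), Caprin1 (4.36), G3bp2 (4.22), Stau1 (3.51), G3bp1 (3.35), Atxn2 (3.29), Tial1 (2.92), Fxr1 (2.47), Tia1 (2.29) and Fmr1 (1.93). Most neighbours in these orders exchanged places between libraries. Neighbours kept their order in every MN1 total mRNA library for G3bp1 over Fxr2, Caprin1 over Fxr1 and Tial1 over Atxn2, and in every neuron total mRNA library for G3bp2 over Stau1 and Fxr1 over Tia1, and the remaining neighbours exchanged places in at least 1 library. Footprint levels ran from Caprin1 (5.39), G3bp2 (5.27) and Fxr2 (4.88) down through Atxn2 (3.96), Stau1 (3.89), Fxr1 (3.47), Tial1 (3.24), G3bp1 (3.06) and Fmr1 (2.43) to Tia1 (1.92) in neurons. MN1 footprints ran from G3bp1 (5.40), Caprin1 (5.29), Fxr1 (4.91) and Fxr2 (4.81) through G3bp2 (4.39), Stau1 (3.98), Tial1 (3.88) and Atxn2 (2.93) to Fmr1 (2.63) and Tia1 (1.99). Neighbours that held their order in every footprint library were Caprin1 over Fxr1, Fxr2 over G3bp2, G3bp2 over Stau1 and Tial1 over Atxn2 in MN1 cells, and G3bp2 over Fxr2, Fxr2 over Atxn2 and G3bp1 over Fmr1 in neurons. The plot of levels per length shows each library, and the paragraphs that follow take the members by role.

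**Figure D1:**
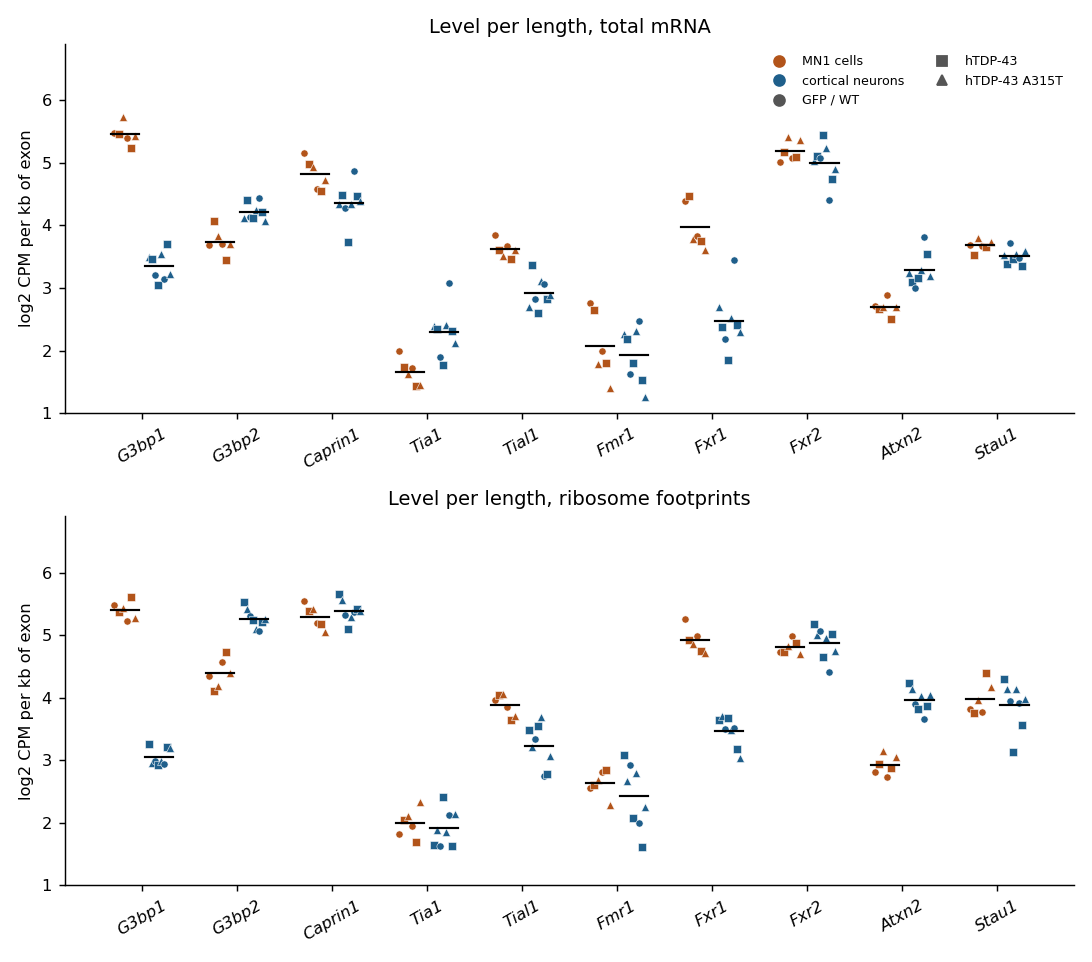
Level of each member in log2 CPM per kilobase of exon (y axis) in total mRNA (top) and footprints (bottom), with 1 point per library (6 in MN1 cells, 8 in neurons), shapes for genotype and black bars for the mean. G3bp1 falls from a mean of 5.46 to 3.35 in total mRNA and from 5.40 to 3.06 in footprints with no overlap of the cell types, while Fmr1 overlaps throughout.

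The question of the comparison between neurons and MN1 cells was how the 2 model systems differ in the machinery of RNA granules, and the 2 scaffolds moved in opposite directions. G3bp1 (ENSMUSG00000018583, chr11:55469685-55504838, plus strand) was at 266, 307 and 374 CPM (lowest, median, highest) in MN1 total mRNA and at 57.5, 71.0 and 91.1 CPM in neurons. Every neuron library lay below every MN1 library. The difference was 4.39-fold lower in neurons (log2 fold change -2.13 ± 0.12 SE, adjusted p = 4.39e-10, edgeR). Footprints of G3bp1 were at 263, 296 and 344 CPM in MN1 cells and 51.1, 53.6 and 65.2 CPM in neurons, again without overlap and 5.20-fold lower (-2.38 ± 0.12, adjusted p = 8.06e-15). A processed copy, Gm5913, matches the whole coding sequence at 98% identity and received between 0.0712% and 0.227% as many reads as G3bp1. Reads that match both equally may have been given to neither gene. Since matches to other genes cover 100% of the coding sequence and 20.9% of the transcript, this would lower footprints of G3bp1 more than its mRNA, and it was not measured.

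G3bp2 (ENSMUSG00000029405, chr5:92052146-92083735, minus strand), the second scaffold, was at 50.2, 60.0 and 77.5 CPM in MN1 total mRNA and 77.8, 84.1 and 101 CPM in neurons. The cell types did not overlap, although the highest MN1 library and the lowest neuron library nearly touched. In footprints it was at 78.6, 94.5 and 122 CPM in MN1 cells and 154, 175 and 213 CPM in neurons, with a clear gap between the cell types. Total mRNA of G3bp2 was higher in neurons by a log2 fold change of 0.49 ± 0.12 (adjusted p = 0.00225), and its footprints were 1.89-fold higher (0.92 ± 0.13, adjusted p = 5.16e-07). Of its exon bases 43.8% overlap Gm26582 on the other strand, and since counting did not use strand, reads there may have been given to neither gene, which would understate the level of G3bp2 and was not measured.

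Caprin1 (ENSMUSG00000027184, chr2:103762941-103797649, minus strand), the binding partner of both scaffolds, was at 239, 291 and 365 CPM in MN1 total mRNA and 136, 210 and 299 CPM in neurons. The groups overlapped, with WT library 3 the highest neuron value. Its total mRNA was lower in neurons (-0.43 ± 0.16, adjusted p = 0.0188), but this call was lost without GFP library 1, hTDP-43 library 1 of MN1 cells or WT library 2 (-0.55 to -0.33 over all fits without 1 library) and without the 2 shallowest neuron cultures (-0.29). Footprints of Caprin1 were at 336, 397 and 476 CPM in MN1 cells and 348, 423 and 512 CPM in neurons and did not pass the test (0.09 ± 0.12, adjusted p = 0.487).

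Tia1 and Tial1, which encode the 2 related RNA-binding proteins TIA1 and TIAR, changed in opposite directions in total mRNA. Tia1 (ENSMUSG00000071337, chr6:86404219-86433403, plus strand) was at 34.3, 40.5 and 51.1 CPM in MN1 total mRNA and 43.4, 64.3 and 109 CPM in neurons, where WT library 3 was the highest. The cell types overlapped in part, and the change was higher in neurons (0.70 ± 0.18, adjusted p = 0.00274) and 0.53 without WT library 3. Its footprints overlapped fully, at 39.7, 49.4 and 63.2 CPM in MN1 cells and 37.9, 45.2 and 66.5 CPM in neurons (-0.13 ± 0.17, adjusted p = 0.473). They were called lower in neurons by edgeR under upper quartile scaling (-0.40, adjusted p = 0.0347) and library size alone (-0.37, adjusted p = 0.0486). Tial1 (ENSMUSG00000030846, chr7:128439777-128461717, minus strand) was at 63.7, 70.7 and 84.0 CPM in MN1 total mRNA and 34.7, 41.8 and 59.8 CPM in neurons, with every neuron library below every MN1 library (-0.67 ± 0.14, adjusted p = 0.000426). Its footprints were at 71.0, 85.7 and 95.1 CPM in MN1 cells and 37.2, 54.6 and 73.7 CPM in neurons. The footprint groups overlapped by 1 neuron library, hTDP-43 A315T 2, which exceeded the lowest MN1 library, and the difference was of the same size as in total mRNA (-0.65 ± 0.15, adjusted p = 0.00047).

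Within the FMRP family only Fxr1 passed the test between the cell types under TMM scaling of all libraries without a block. Fxr1 (ENSMUSG00000027680, chr3:34019943-34070322, plus strand), the relative that is abundant in muscle as well as brain, was at 78.8, 91.0 and 145 CPM in MN1 total mRNA and 22.8, 33.8 and 70.8 CPM in neurons. No neuron library reached an MN1 library, and the 70.8 CPM of WT library 3 came nearest. Fxr1 was 2.73-fold lower in neurons (-1.45 ± 0.20, adjusted p = 9.41e-06), and its footprints, at 170, 193 and 248 CPM in MN1 cells and 51.6, 72.1 and 83.3 CPM in neurons, were 2.71-fold lower (-1.44 ± 0.13, adjusted p = 3.27e-10). Fmr1 (ENSMUSG00000000838, chrX:68678541-68717963, plus strand) was at 23.0, 32.9 and 59.9 CPM in MN1 total mRNA and 20.7, 35.3 and 49.3 CPM in neurons. These ranges coincided, as did the footprint ranges of 41.5, 53.9 and 62.5 CPM and 25.3, 47.5 and 73.9 CPM, and neither difference passed the test (-0.09 ± 0.24, adjusted p = 0.721, and 0.01 ± 0.20, adjusted p = 0.98). Fxr2 (ENSMUSG00000018765, chr11:69632990-69653297, plus strand) was at 121, 131 and 159 CPM in MN1 total mRNA and 79.3, 124 and 163 CPM in neurons (-0.19 ± 0.13, adjusted p = 0.197), and at 95.7, 101 and 117 CPM and 78.2, 116 and 134 CPM in footprints (0.11 ± 0.13, adjusted p = 0.423). Its lowest neuron values in both library types came from WT culture 3, and its total mRNA change was called without WT library 2 (-0.31). In edgeR the change was also called with the replicate block (-0.22, adjusted p = 0.0492), where 9884 of 11818 genes were called. Upper quartile scaling (-0.39, adjusted p = 0.015) and library size alone (-0.61, adjusted p = 0.00837) called it too.

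Atxn2 (ENSMUSG00000042605, chr5:121711337-121816493, plus strand), which encodes ataxin-2, was at 88.8, 101 and 116 CPM in MN1 total mRNA and 125, 145 and 221 CPM in neurons. Every neuron library lay above every MN1 library (0.63 ± 0.13, adjusted p = 0.000608), with WT library 3 at the top and a change of 0.53 without it. The footprint gap was wider, with 102, 116 and 137 CPM in MN1 cells against 195, 243 and 293 CPM in neurons, or 2.07-fold higher (1.05 ± 0.11, adjusted p = 1.28e-08). Stau1 (ENSMUSG00000039536, chr2:166947549-166996299, minus strand), the Staufen member, was at 69.5, 77.2 and 83.9 CPM in MN1 total mRNA and 61.5, 68.1 and 79.6 CPM in neurons (-0.16 ± 0.10, adjusted p = 0.153), and at 80.1, 87.7 and 125 CPM against 51.1, 92.3 and 118 CPM in footprints (0.03 ± 0.15, adjusted p = 0.837). Both sets of ranges overlapped.

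**Figure D2:**
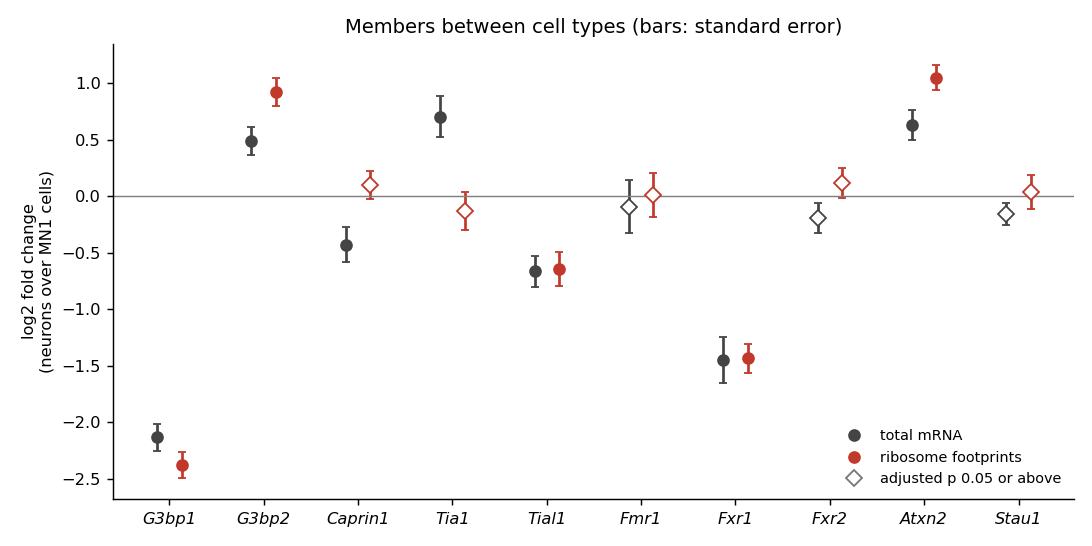
Log2 fold change of each member in neurons over MN1 cells (y axis) with its standard error, from all 14 total mRNA libraries (dark grey) or all 14 footprint libraries (red). Filled circles passed an adjusted p of 0.05 and open diamonds did not, and G3bp1 (-2.13 and -2.38) and Fxr1 (-1.45 and -1.44) lie lowest in both.

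In all, 7 of 10 members were called in total mRNA (3 higher in neurons, 4 lower) where 81.8% of 11818 tested genes were called (42.7% higher, 39.1% lower), and 5 of 10 in footprints (2 higher, 3 lower) where 82.9% of 9518 genes were called (44% higher, 38.9% lower). The members' shares were thus at or below the background. Their median log2 fold change was -0.18 in total mRNA and 0.02 in footprints, beside 0.07 and 0.11 over all genes, and 5 of 10 members in total mRNA and 4 of 10 in footprints showed no overlap of the cell types, where 64.9% and 62.2% of all tested genes showed none. Scaling by library size alone, without TMM, moved the median of all genes to -0.37 in total mRNA and -0.13 in footprints, and under it no member was higher in total mRNA and 7 were lower, where 81.7% of genes were called. With that scaling the total mRNA changes of G3bp2, Tia1 and Atxn2 were 0.03, 0.22 and 0.15 and no longer called, those of Fmr1, Fxr2 and Stau1 were -0.56, -0.61 and -0.59 and called, and G3bp1, Fxr1, Tial1 and Caprin1 were lower as before. The footprint calls of G3bp1, Fxr1, Tial1, G3bp2 and Atxn2 held under every scaling tried. Under upper quartile scaling 9 of 10 members were called in total mRNA (3 higher, 6 lower), with Fxr2 (-0.39) and Stau1 (-0.36) added, where 9753 of 11818 genes were. In footprints it called 6 of 10 (2 higher, 4 lower), with Tia1 (-0.40) added, where 8005 of 9518 genes were. With the control cultures alone (GFP and WT, 2 each), all 5 footprint calls remained, where 7211 of 10177 genes were called. Only G3bp1 was called in total mRNA, where 6471 of 12105 genes were.

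Ratios between related members need no scaling between libraries, and 3 of the 4 pairs differed between the cell types in both library types. For each G3bp1 read, MN1 total mRNA libraries held 0.177 to 0.250 G3bp2 reads and neurons held 0.95 to 1.63, a 5.99-fold higher ratio, and in footprints the ratio rose from 0.273 to 0.413 in MN1 cells to 2.7 to 3.8 in neurons, 9.31-fold higher. Neither range overlapped, and p was 0.000333 for both in an exact two-sided permutation test of 8 neuron against 6 MN1 libraries, the smallest value this design allows. Thus G3bp1 led in MN1 cells, and in neurons G3bp2 footprints outnumbered those of G3bp1 in every library. Reads of Tial1 per Tia1 read fell from 1.65 to 2.04 in MN1 total mRNA to 0.442 to 0.923 in neurons (log2 difference -1.32, p = 0.000333, exact permutation test), with a smaller and overlapping difference in footprints (1.17 to 2.05 against 0.690 to 1.65, log2 difference -0.56, p = 0.0196, exact permutation test). Fxr1 reads per Fmr1 read were 2.28 to 3.42 in MN1 total mRNA and 0.75 to 1.51 in neurons (log2 difference -1.36, p = 0.000333, exact permutation test), and 2.77 to 4.90 against 1.07 to 2.29 in footprints (-1.24, p = 0.000666, exact permutation test). The ratio of Fxr2 to Fmr1 overlapped between the cell types and did not pass the test in total mRNA (2.02 to 6.72 in MN1 cells, 1.61 to 5.43 in neurons, log2 difference -0.06, p = 0.866, exact permutation test) and in footprints (1.73 to 2.30 and 1.81 to 4.75, log2 difference 0.28, p = 0.126, exact permutation test). These were 8 tests with unadjusted p. The ratios of reads are not corrected for the lengths of the 2 genes, nor for reads that copies or overlapping genes may have left uncounted.

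**Figure D3:**
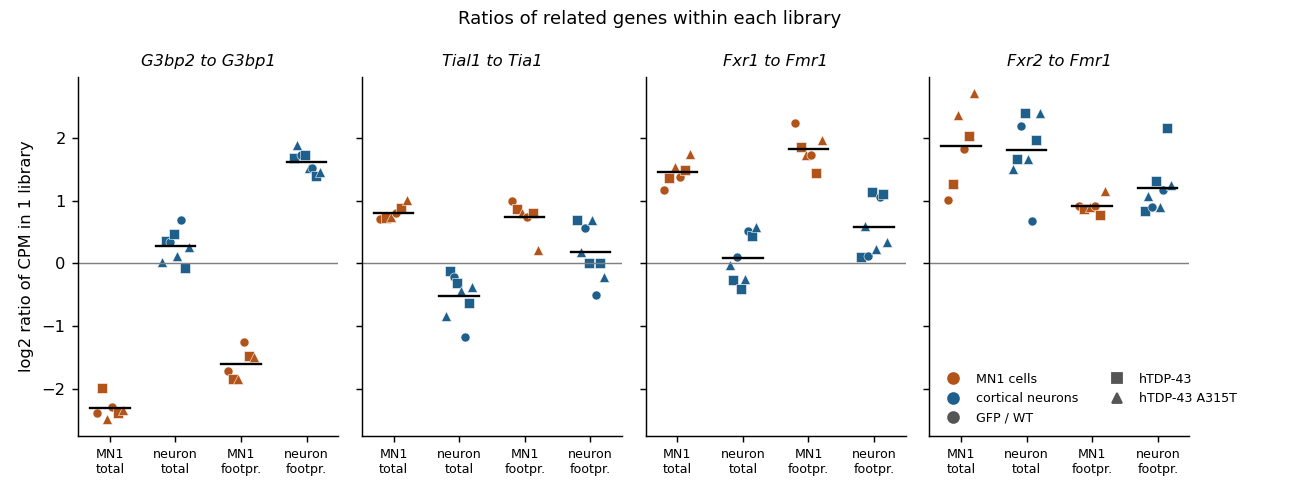
Log2 ratio of CPM of 2 related members within 1 library (y axis) by cell type and library type, with 1 point per library, shapes for genotype and bars for the mean. The G3bp2 to G3bp1 ratio lies below 0 in all MN1 libraries and above 0 in all neuron footprint libraries, and the Fxr2 to Fmr1 ratio overlaps between cell types, with neuron footprints reaching higher.

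Footprints relative to total mRNA compare a gene's share of ribosome footprints with its share of mRNA reads, although total mRNA was poly(A)-selected and footprints were not. Both were counted over all exons, and the study found footprints to prefer coding sequence over 3′ UTRs. The ratio therefore also depends on the coding part of a transcript, which was not corrected for. That part was 1398 of 6703 bases in G3bp1, 1161 of 4477 in Tia1, 2034 of 2459 in Fxr1 and 3861 of 4472 in Atxn2. Under TMM scaling most members had proportionally more footprints than mRNA, Fxr1, G3bp2 and Caprin1 in every culture of both cell types, and Fxr2 was on the other side of the scale in MN1 cells. In MN1 cells 9 of 10 members were called (8 higher in footprints, 1 lower) where 59.2% of 9421 genes were called (28.2% higher, 31% lower), and in neurons 8 of 10 (6 higher, 2 lower) where 57.1% of 10337 genes were called (26.1% higher, 31% lower). The members' median log2 ratio was 0.35 in MN1 cells and 0.47 in neurons, beside a median of -0.05 over all genes in each. Under library size alone 4 members were called in MN1 cells, 2 higher (G3bp2, 0.45, and Fxr1, 0.76) and 2 lower (Fxr2, -0.56, and G3bp1, -0.22), where 61.6% of genes were called and the median of all genes was -0.27. With the control cultures alone, 2 members were called in MN1 cells (G3bp2 and Fxr1, both higher), where 2930 of 9498 genes were called. In neurons 0 members were called, where edgeR called 0 of 11012 genes.

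For Fxr1 the log2 difference of a culture's 2 libraries was 0.48, 1.09 and 1.22 (lowest, median, highest) over 6 MN1 cultures and 0.07, 0.94 and 1.90 over 8 neuron cultures, so that footprints exceeded mRNA in every culture (0.99 ± 0.13, adjusted p = 2.45e-05 in MN1 cells, and 0.90 ± 0.18, adjusted p = 0.000482 in neurons, edgeR). G3bp2 was at 0.07, 0.71 and 1.28 in MN1 cells (0.68 ± 0.13, adjusted p = 0.000612) and 0.65, 1.07 and 1.21 in neurons (1.02 ± 0.10, adjusted p = 1.68e-07). Caprin1 was at 0.40, 0.52 and 0.68 in MN1 cells (0.53 ± 0.13, adjusted p = 0.00242) and 0.53, 1.01 and 1.46 in neurons (0.98 ± 0.13, adjusted p = 4.68e-06). All cultures of both cell types lay above 0 for these 3 genes. Fxr2 was below 0 in every MN1 culture, at -0.59, -0.34 and -0.02 (-0.34 ± 0.09, adjusted p = 0.00489), and straddled 0 in neurons (-0.71, -0.11 and 0.35), where it did not pass the test (-0.13 ± 0.14, adjusted p = 0.438). G3bp1 was at -0.17, -0.06 and 0.38 in MN1 cells, around 0 (0.00 ± 0.09, adjusted p = 0.972), and below 0 in every neuron culture, at -0.68, -0.33 and -0.06 (-0.34 ± 0.13, adjusted p = 0.0321).

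Tia1 was called in opposite directions in the 2 cell types, at -0.18, 0.29 and 0.94 in MN1 cells (0.37 ± 0.13, adjusted p = 0.0286) and -0.97, -0.59 and 0.71 in neurons (-0.53 ± 0.20, adjusted p = 0.0297), with 1 culture on the other side of 0 in each cell type. Atxn2 was higher in footprints by 0.29 ± 0.09 in MN1 cells (adjusted p = 0.011) and 0.62 ± 0.12 in neurons (adjusted p = 0.000316), Fmr1 by 0.57 ± 0.19 (adjusted p = 0.0193) and 0.53 ± 0.22 (adjusted p = 0.0471), and Stau1 by 0.33 ± 0.11 (adjusted p = 0.0196) and 0.41 ± 0.12 (adjusted p = 0.00907). Tial1 was called in MN1 cells (0.33 ± 0.11, adjusted p = 0.019) and not in neurons (0.25 ± 0.16, adjusted p = 0.197). DESeq2 did not call Tia1 in MN1 cells (adjusted p = 0.0677), nor G3bp1 (adjusted p = 0.058) and Fmr1 (adjusted p = 0.0653) in neurons. It called 8 members in MN1 cells, where it called 4937 of 9421 genes, and 6 in neurons, where it called 5617 of 10337. Without the 2 shallowest neuron cultures edgeR did not call G3bp1 and Fmr1 in neurons, where 5157 of 10874 genes were called. Several of the smaller calls rested on single cultures. In MN1 cells the call of Tia1 was lost without any 1 culture other than GFP 1, that of Fmr1 without hTDP-43 A315T 1, GFP 2 or hTDP-43 2, that of Stau1 without GFP 1, hTDP-43 2 or hTDP-43 A315T 2, that of Tial1 without hTDP-43 1 or hTDP-43 A315T 1, and that of Atxn2 without GFP 1 or hTDP-43 A315T 1, with changes of 0.24 to 0.79 over all these fits. In neurons the call of G3bp1 was lost without any 1 culture other than hTDP-43 A315T 3 (-0.40 to -0.26), that of Tia1 without hTDP-43 1 or 3, hTDP-43 A315T 1 or 2 or WT 3 (-0.61 to -0.31), that of Fmr1 without hTDP-43 1, WT 2 or any 1 of the hTDP-43 A315T cultures (0.25 to 0.85), and that of Stau1 without hTDP-43 1 (0.31 to 0.54). Under library size alone G3bp2, Caprin1, Fxr1, Atxn2, Fmr1 and Stau1 were called in neurons, and G3bp1 and Tia1 were not, where 5479 of 10337 genes were called.

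**Figure D4:**
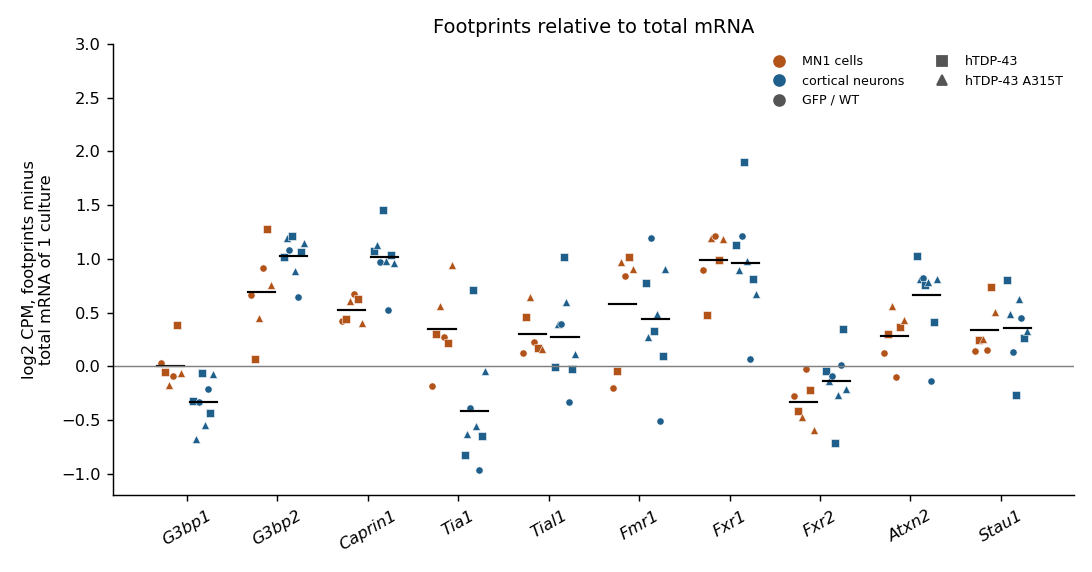
Log2 CPM of footprints minus that of total mRNA of the same culture (y axis) for each member, with 1 point per culture (6 MN1, 8 neuron), shapes for genotype and bars for the mean; 0 marks equal shares of both libraries. Fxr1, G3bp2 and Caprin1 lie above 0 in every culture, and Tia1 is mostly above 0 in MN1 cells and mostly below it in neurons.

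Whether this footprint to mRNA ratio itself differed between the cell types was tested with an interaction term over all 28 libraries. None of the 10 members was called by edgeR, where 8.47% of 11587 genes were (6.02% higher in neurons, 2.45% lower), although 4 members had an unadjusted p under 0.05, as did 23.3% of all genes, and DESeq2 called 1 member and 5.85% of genes. Those 4 were Tia1 (-0.76 ± 0.26, adjusted p = 0.0689), Caprin1 (0.59 ± 0.20, adjusted p = 0.0713), G3bp2 (0.49 ± 0.17, adjusted p = 0.0666) and Atxn2 (0.48 ± 0.17, adjusted p = 0.0767). With the culture as a replicate block, Caprin1 (0.61, adjusted p = 0.013) and Tia1 (-0.72, adjusted p = 0.0449) were called, where 10.7% of genes were. The scaling set the direction of the genome-wide result, since 71% of the called genes were higher in neurons under TMM (median of all genes 0.18) and 31.7% under RLE scaling (median -0.01). Under RLE scaling (-0.96, adjusted p = 0.0283) and in DESeq2 (-0.95, adjusted p = 0.0244) Tia1 was the 1 member called, and so it was under upper quartile scaling (-0.87), where RLE scaling called 5.23% and upper quartile scaling 5.95% of genes. Under library size alone Tia1 was not called (-0.57, adjusted p = 0.122), and Caprin1 (0.77), Atxn2 (0.67) and G3bp2 (0.64) were, where 9.67% of genes were. Without WT culture 2 the differences were -1.02 for Tia1, now called, 0.33 for Caprin1, 0.22 for G3bp2 and 0.15 for Atxn2. A single member was also called without hTDP-43 culture 2 of the neurons (Tia1, -0.90), without hTDP-43 culture 2 of the MN1 cells (G3bp2, 0.67) and without WT culture 3 (Atxn2, 0.62).

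None of the members was called between genotypes in the fits on all libraries without a replicate block. Over 18 comparisons (footprints, total mRNA and their ratio, the translational efficiency, for each pair of genotypes in each cell type) the members gave 180 changes, of which edgeR and DESeq2 called 0, and 6 (3.33%) had an unadjusted p under 0.05. The background was as low, since Gm13886 was the 1 gene called in MN1 cells in 3 comparisons with GFP, which is 0.0115% of genes for hTDP-43 A315T footprints, 0.00965% for hTDP-43 A315T total mRNA and 0.01% for hTDP-43 total mRNA, and 0% in the other 15 comparisons. In size, 170 of the 180 changes were within 0.5 on the log2 scale, and the lowest adjusted p was 0.849. The 3 comparisons of a cell type share libraries in pairs, so their values are not independent of each other. G3bp1, with its long TG run, stayed between -0.27 and 0.26 over the 18 comparisons, G3bp2 between -0.22 and 0.23, Stau1 between -0.18 and 0.33 and Tial1 between -0.28 and 0.27. Caprin1 ranged from -0.31 to 0.45, Fxr2 from -0.38 to 0.37, Atxn2 from -0.22 to 0.50 and Tia1 from -0.42 to 0.69, and the widest ranges were those of Fmr1 (-0.87 to 0.69) and Fxr1 (-0.69 to 0.78). With 2 or 3 cultures per group, none of these changes passed the adjusted test without the block.

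Both of these FMRP family members were lowest in total mRNA of MN1 cells with hTDP-43 A315T. Fmr1 was at 59.9 and 35.2 CPM with GFP (cultures 1 and 2), 55.8 and 30.6 CPM with hTDP-43 and 30.2 and 23.0 CPM with hTDP-43 A315T. Fxr1 was at 136 and 92.7 CPM with GFP, 145 and 87.6 CPM with hTDP-43 and 89.4 and 78.8 CPM with hTDP-43 A315T. Culture 1 exceeded culture 2 in every group for both genes, hTDP-43 A315T was the lowest genotype within each culture number, and its Fmr1 values lay below those of both other groups, whereas its Fxr1 values overlapped those of hTDP-43. The changes of hTDP-43 A315T against GFP were -0.87 ± 0.29 for Fmr1 and -0.50 ± 0.21 for Fxr1 (adjusted p = 0.849 for both in edgeR, unadjusted p of 0.0161 and 0.0393), and those against hTDP-43 were -0.80 ± 0.30 and -0.57 ± 0.23. Total mRNA libraries of the same replicate number share the date in their labels. With the replicate block in edgeR the changes against GFP were called, at -0.90 for Fmr1 (adjusted p = 0.0069) and -0.51 for Fxr1 (adjusted p = 0.0266), where 2.73% of 10361 genes (283) were called. That fit had 2 libraries per group and few residual degrees of freedom. Against hTDP-43 the block called neither gene nor any other member, where 76 of 10080 genes were called. Without GFP library 2 the changes against GFP were -1.26 and -0.80, and without GFP library 1 they were -0.40 and -0.16. Against hTDP-43 they were -1.15 and -0.88 without hTDP-43 library 2, and -0.27 and -0.14 without hTDP-43 library 1. These fits left 1 library in the compared group, so its culture number and the genotype cannot be told apart and only sizes are given. Fmr1 footprints were also lower with hTDP-43 A315T in culture number 2 and were not in culture number 1, at 50.7 and 60.6 CPM with GFP, 52.4 and 62.5 CPM with hTDP-43 and 55.3 and 41.5 CPM with hTDP-43 A315T. Fxr1 footprints were at 248 and 205 CPM, 197 and 173 CPM, and 189 and 170 CPM in the same order, with GFP above both other groups. In neurons total mRNA of Fmr1 was at 27.0 and 49.3 CPM in WT, 40.2, 30.4 and 25.0 CPM with hTDP-43 and 42.3, 43.9 and 20.7 CPM with hTDP-43 A315T, with full overlap. Fxr1 was at 29 and 70.8 CPM in WT, 33.5, 22.8 and 34.2 CPM with hTDP-43 and 41.7, 36.8 and 31.3 CPM with hTDP-43 A315T. Without WT library 2, which left only WT library 3 with its many Lars2 reads, the change of Fxr1 with hTDP-43 A315T against WT was -0.90.

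**Figure D5:**
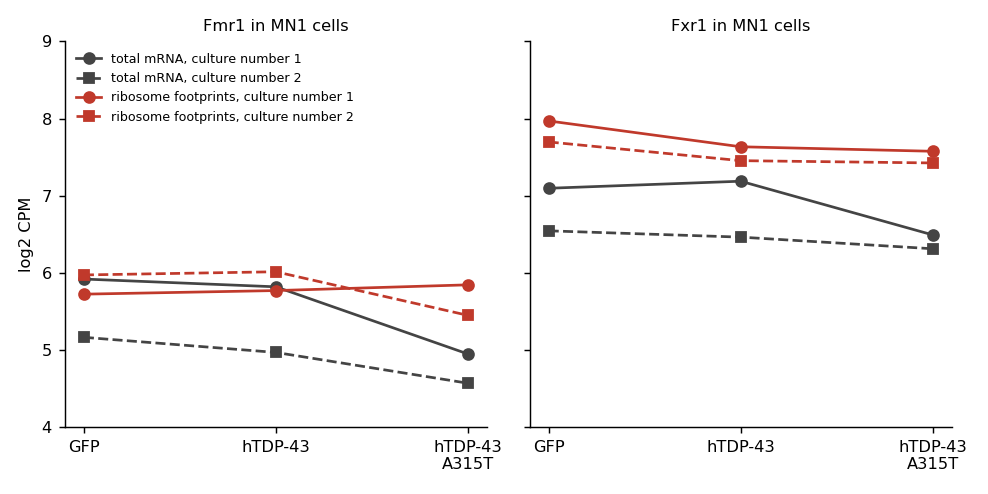
Fmr1 (left) and Fxr1 (right) in MN1 cells, in log2 CPM (y axis) by transfected plasmid (x axis), with lines joining libraries of the same culture number. In total mRNA (black) hTDP-43 A315T is the lowest point of both lines for both genes, at 30.2 and 23.0 CPM for Fmr1, while Fmr1 footprints (red) are lowest with it in culture number 2 and not in culture number 1.

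The wider protein set of stress granules was mostly lower in neurons. Of 20 other stress granule proteins, total mRNA of 13 was lower, 1 higher and 6 not called (median log2 fold change -0.83 beside 0.07 over all genes), and of 19 tested in footprints 14 were lower and none higher (median -0.88 beside 0.11). Of all genes tested 39.1% were lower and 42.7% higher in total mRNA, and 38.9% lower and 44% higher in footprints. The cold-shock domain protein Ybx3 (-2.93 ± 0.13) and the hnRNP Hnrnpa1 (-2.22 ± 0.13) had the lowest values, and the translation repressor Ybx1 was the 1 gene higher in total mRNA (0.34 ± 0.12, but -0.08 under library size alone) with lower footprints (-1.0). In footprints G3bp1, Fxr1 and Tial1 were lower, like most of these partners, and G3bp2 and Atxn2 were higher.

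Among 22 neuronal RNA granule and FMRP partners, 20 passed the filter in total mRNA, of which 11 were higher and 7 lower in neurons (median 0.72, with 8 and 8 under library size alone). Of all 11818 genes tested in total mRNA 42.7% were higher and 39.1% lower, and 4025 genes were higher and 5635 lower under library size alone. Cyfip2, whose product binds FMRP, had no footprint read in the 6 MN1 libraries and 4087 in neurons, at least 706-fold higher per library depth when 3 reads over the group are taken as the floor. Cpeb3, a regulator of synaptic translation, was higher (4.33 ± 0.26), and Igf2bp3, an oncofetal mRNA-binding protein, and Nufip1, an FMRP interactor, were lower (-3.06 ± 0.29 and -1.45 ± 0.21). Of 17 P-body proteins, 9 were higher and 6 lower in total mRNA (median 0.36), and under library size alone 3 were higher and 6 lower (median -0.14), beside the same shares of all genes. The microRNA pathway genes Tnrc6b (1.77 ± 0.21) and Ago1 (1.26 ± 0.13) were higher and Eif4enif1 (-1.70 ± 0.10) and Lsm14a (-1.56 ± 0.11), which act in storage of repressed mRNA, lower, under every scaling tried. Footprints of the neuronal granule list gave 10 higher and 7 lower of 20 tested (median 0.62), and those of the P-body list 5 higher and 2 lower of 16 (median 0.02). Under library size alone the P-body list gave 4 higher, 6 lower and a median of -0.22. Of all 9518 genes tested in footprints 44% were higher and 38.9% lower, and 3746 genes were higher and 4228 lower under library size alone.

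Relative to total mRNA, footprints of the stress granule partners were higher for 10 and lower for 4 of 20 genes in MN1 cells (median 0.25), those of the neuronal granule partners higher for 9 and lower for 3 of 18 (median 0.35), and those of P-body proteins higher for 2 and lower for 10 of 17 (median -0.45). Of all genes tested there 28.2% were higher and 31% lower. In neurons the same lists gave 9 higher and 5 lower of 19 (median 0.25), 7 and 4 of 19 (median -0.07), and 1 and 10 of 17 (median -0.55), where 26.1% of all genes were higher and 31% lower. No gene of the 3 lists was called by edgeR in any comparison of genotypes without the block, where Gm13886 was the 1 gene called. Over the 14 total mRNA libraries the genes whose log2 CPM ran closest to G3bp1 were Cbfb (Pearson r 0.995), Rrbp1 (0.994) and Tuba1c (0.993), which follow the split of the cell types. Within the 6 MN1 libraries r was 0.842, 0.869 and 0.356, and within the 8 neuron libraries 0.869, 0.784 and 0.843, in the same order.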

How the data were processed

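Ribosome footprints and total mRNA of 28 libraries were analysed from the tables the authors deposited, 1 per library, which hold raw read counts per gene on Ensembl 80 exons of GRCm38. Per the study's methods and the submitters' processing notes, reads were trimmed with cutadapt 1.8.1, cleared of non-coding RNA with Bowtie2, aligned with TopHat2 and counted with featureCounts 1.4.4, which per the file headers counted exons without strand. Identical libraries were looked for and none was found. Counts were tested with edgeR 4.0.16 in R 4.3.3 (quasi-likelihood F-test, TMM scaling, filterByExpr with a minimum count of 10 and a minimum total of 15, Benjamini-Hochberg adjustment over all genes tested, called at an adjusted p below 0.05). Standard errors are those of the quasi-likelihood fit. Genotypes were compared within a cell type and library type on the libraries of both groups, cell types and library types with each genotype weighted equally, and translational efficiency as the interaction of genotype and library type. The study used DESeq, which was not used here, and DESeq2 1.42.0 served as an alternative. CPM are depth-scaled counts after TMM normalisation over libraries of 1 type, with 2 counts added on the log2 scale, and the footprint to total mRNA differences of single cultures use scaling over both library types of a cell type. Related members were compared by an exact two-sided permutation test. Other alternatives were RLE, upper quartile and library size scaling (the last chosen for the tests after seeing the data), no count filter, leaving out the 10 genes with most reads, a replicate block, the control cultures alone, and leaving out the 2 shallowest neuron cultures or 1 library or culture at a time. Labels do not say that cultures came from separate animals, so p-values measure the spread between these cultures. Same-numbered libraries share the date in their labels (1 GFP footprint library carries another year). Their deviations from group means correlated in MN1 cells (mean r 0.254 for footprints and 0.329 for total mRNA) and less in neurons (mean r 0.117 and 0.162). With 2 cultures per MN1 group the deviations mirror each other, so pairs of number 1 and of number 2 give the same r and are not independent. Since the labels give the shared date, the block was taken as a paired fit. The members and the 3 lists of partners were chosen with earlier results of these data known. All members were named, as were, of each list, the 2 genes with the largest change in each direction called in total mRNA between cell types, and the 3 genes best correlated with the member that changed most. Sequences were read from GENCODE M21 transcripts on GRCm38; the spans of G3bp2 and Tia1 differ there from those counted. Of the other members' transcripts, stretches of at least 100 bases at 90% identity or more matched another gene over 26.1% of Fxr1 (Gm17795), 7.88% of Tia1 (Gm44790) and 3.47% of Atxn2, and reads there may be split. The depth of a library sets a level of 3 reads at 0.430 to 18.1 CPM of unscaled reads. The tests were tested on simulated counts with known changes.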

Additional observations from a re-analysis of the deposited data

Results flagged for a closer look

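Among 76 groups of 4 to 10 samples, 3 held a value farther from the rest than Dixon's 95% limit allows, and chance alone gives about 1 in 20 groups, which bears on all 3. The footprint library of hTDP-43 neuron culture 3 had a log2 ratio of Fxr2 to Fmr1 of 2.15, against 1.31 in the nearest neuron library, from 19 and 4 reads. In MN1 footprints the log2 ratio of Tial1 to Tia1 was 0.22 in hTDP-43 A315T culture 2 and 0.75 in the nearest library. For G3bp1 the footprint to total mRNA log2 difference was 0.38 in MN1 hTDP-43 culture 2 and 0.03 in the next culture. The log2 CPM of each member was also compared in 40 contrasts of hTDP-43 or hTDP-43 A315T cultures with the control cultures (GFP or WT). In none did they lie wholly above the controls in 1 cell type and wholly below them in the other.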

How the results depend on the processing

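Of 1036 refitted member changes, 862 kept their direction and side of the threshold, 80 lost and 28 gained a call, and 66, belonging to 14 member comparisons, turned sign, none of them called as first fitted and 1 called in the new fit, the footprint to total mRNA change of G3bp1 in MN1 cells at -0.22 under library size alone. That change was also -0.096 with no filter, -0.0019 with the replicate block and -0.022 with control cultures. Footprint changes between cell types that turned were -0.0071 (Caprin1), -0.037 (Fmr1) and -0.0038 (Fxr2) with control cultures, -0.15 (Caprin1), -0.27 (Fmr1), -0.15 (Fxr2) and -0.23 (Stau1) under upper quartile scaling, -0.13, -0.24, -0.12 and -0.20 for these 4 under library size alone, -0.081 (Fmr1) and -0.044 (Stau1) under RLE scaling, -0.12 and -0.068 in DESeq2, and -0.044 for Fmr1 with the block. In total mRNA Fmr1 turned to 0.065 without the 2 shallowest cultures and Stau1 to 0.0068 with control cultures. In the interaction Tial1, Fmr1 and Fxr1 turned to -0.13, -0.078 and -0.13 under RLE scaling and -0.14, -0.10 and -0.13 in DESeq2, Tial1 and Fxr1 to -0.043 and -0.046 under upper quartile scaling and -0.13 and -0.56 with control cultures, and Tial1 to -0.014 without the 2 shallowest cultures. Without 1 library or culture, footprints between cell types ranged from -0.29 to 0.19 (Fmr1), -0.039 to 0.28 (Fxr2) and -0.17 to 0.20 (Stau1), total mRNA from -0.24 to 0.053 (Fmr1), footprints against total mRNA from -0.066 to 0.081 (G3bp1, MN1 cells) and -0.14 to 0.018 (Fxr2, neurons), the interaction from -0.28 to 0.19 (Tial1), -0.38 to 0.34 (Fmr1), -0.28 to 0.25 (Fxr1) and -0.15 to 0.30 (Stau1), and hTDP-43 A315T against WT in neuron total mRNA from -0.43 to 0.39 (Fmr1) and -0.90 to 0.34 (Fxr1). With the replicate block, 2 members were called in MN1 total mRNA of hTDP-43 A315T against GFP and 2 in the interaction of library and cell type. In footprints against total mRNA, MN1 cells gave 5 calls with no filter (where 6049 of 25364 genes were called), 4 under library size alone (61.6% of genes) and 2 with control cultures (2930 of 9498 genes). Neurons gave 0 with control cultures (0 of 11012 genes), which also left 1 member called between cell types in total mRNA (6471 of 12105 genes). The interaction gave 1 call under RLE scaling, DESeq2 and upper quartile scaling each, and 3 under library size alone. Over fits that left out 1 library or culture, members called ranged from 5 to 7 and 4 to 7 for footprints against total mRNA in MN1 cells and neurons, and 0 to 1 for the interaction. Between genotypes such fits can leave 1 library in a group, and only sizes are given for them. With control cultures, the log2 ratio difference was 2.85 for G3bp2 to G3bp1 and -0.97 for Fxr1 to Fmr1 in total mRNA, and the level per length was 3.76 for Tial1 in MN1 total mRNA and 5.12 for Fxr1 and 2.78 for Atxn2 in MN1 footprints. Library size alone gave MN1 total mRNA levels of 5.70 (G3bp1), 3.98 (G3bp2), 5.07 (Caprin1), 1.90 (Tia1), 3.86 (Tial1), 5.43 (Fxr2), 2.94 (Atxn2) and 3.92 (Stau1), and 4.02 (G3bp2) and 3.31 (Stau1) in neurons. The remaining causes were not tested, and fits on fewer libraries have less power by construction. In the shallowest neuron footprint library Fmr1, Tia1, Tial1 and Fxr1 had 4, 6, 6 and 9 reads, which limits their values there, and the block changed no call other than those given.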
